A study of Mus musculus with 8 samples.

Results

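The genes described here are targets of the tumour suppressor p53 and genes that mark or enforce senescence, a lasting stop of the cell cycle. Of the 10 genes listed (Trp53, Cdkn1a, Cdkn2a, Cdkn2b, Mdm2, Trp53inp1, Ccng1, Plk2, Phlda3 and Gdf15), 8 had a probe that the array's platform annotation gives exactly 1 gene symbol, out of 22180 genes with such a probe. The genes were chosen by name, for known functions, with earlier results of these tumours known; the measured value that the choice of probe was selected on, the mean signal, came into play for none, since each of the 8 had 1 such probe. Trp53 and Gdf15 were not analysed here. All 8 measured genes were among the 16635 genes bright enough to be tested, those with a mean log2 signal of at least 4.06 over all tumours.

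The samples were 8 untreated primary mammary tumours of transgenic FVB mice, an inbred strain, with 1 Affymetrix array of total RNA per tumour. All carried NeuNT, a transgene of Neu (in rodents, the growth factor receptor ErbB2). For 4 tumours the labels name no further allele; the remaining 4, NeuNT/H1074R, bear in addition a mutant p110α, the PI3K subunit that makes the lipid signal (H1047R in the series title). Which promoters drive the transgenes, how old the mice were and whether each tumour came from its own mouse is not stated in the labels; p-values therefore reflect how these tumours vary, which may be technical in part. Replicate numbers only name the tumours. Values are log2 array signals: 1 unit is a 2-fold change in signal, and a level can be compared between tumours for 1 gene but not between genes.

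p53 is a transcription factor held low by Mdm2, a ubiquitin ligase that is itself a p53 target, and released when DNA damage or oncogene signalling blocks Mdm2. Cdkn1a (p21) is the p53 target that inhibits cyclin-dependent kinases and stops the cell cycle, and Cdkn2a and Cdkn2b encode inhibitors of CDK4 and CDK6 that act through the retinoblastoma protein. Cdkn2a also encodes the Arf protein, from its own first exon, which binds Mdm2 and so frees p53; both transcripts share the second exon, and a gene-level probe gives 1 value for the gene. In mammary epithelium, as elsewhere, strong oncogene signalling can switch these genes on and halt growth.

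No gene of this group separated the genotypes: in all 8 the values of the NeuNT and NeuNT/H1074R tumours overlapped. Over the 8 tumours each of the genes had a negative correlation with Erbb2, closest for Ccng1. The NeuNT tumour with the highest Erbb2 (replicate 1) held the lowest Cdkn1a, Cdkn2a, Cdkn2b and Plk2 of all tumours. None of these relations passed an adjustment over all genes.

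Promoter sequences from RefSeq (mouse build GRCm38.p6, 250 bases before to 50 after a start site) matched 7 of the 8 measured genes, with 9 windows in all; Trp53inp1 had no entry. Printed are the windows that held a p53 half-site, of Cdkn1a, Mdm2 and Ccng1, and those of the 2 starts of Cdkn2a. Capitals mark matches to the p53 half-site consensus, a motif of 10 letters that reads the same on both strands. The first Cdkn1a window (chr17:29090729-29091028, plus strand) belongs to the more upstream of its 2 starts and held 2 half-sites, GGACTAGCTT beginning 73 bases and GAACATGTCT beginning 51 bases before the start, with 12 bases between them. The letters right after GAACATGTCT, tgacatgttc, differ from the consensus at the first letter only and are therefore unmarked. The Mdm2 window (chr10:117710709-117711008, minus strand) and the Ccng1 window (chr11:40755237-40755536, minus strand) held 1 half-site each, 186 and 185 bases before the start. The Cdkn2a windows (chr4:89294570-89294869 and chr4:89282143-89282442, minus strand), of an upstream and a downstream first exon, held none.
Cdkn1a, upstream start: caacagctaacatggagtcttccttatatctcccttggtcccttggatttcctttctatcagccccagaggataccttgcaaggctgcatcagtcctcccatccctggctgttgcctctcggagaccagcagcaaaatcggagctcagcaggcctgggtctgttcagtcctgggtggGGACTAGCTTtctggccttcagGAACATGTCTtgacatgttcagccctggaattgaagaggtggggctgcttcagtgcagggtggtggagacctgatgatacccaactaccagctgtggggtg
Mdm2: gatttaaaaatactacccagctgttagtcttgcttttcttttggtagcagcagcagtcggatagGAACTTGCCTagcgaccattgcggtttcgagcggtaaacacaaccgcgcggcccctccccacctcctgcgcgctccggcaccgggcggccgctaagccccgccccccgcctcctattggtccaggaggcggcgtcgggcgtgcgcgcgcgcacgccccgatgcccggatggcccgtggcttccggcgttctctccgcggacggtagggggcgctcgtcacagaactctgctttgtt
Ccng1: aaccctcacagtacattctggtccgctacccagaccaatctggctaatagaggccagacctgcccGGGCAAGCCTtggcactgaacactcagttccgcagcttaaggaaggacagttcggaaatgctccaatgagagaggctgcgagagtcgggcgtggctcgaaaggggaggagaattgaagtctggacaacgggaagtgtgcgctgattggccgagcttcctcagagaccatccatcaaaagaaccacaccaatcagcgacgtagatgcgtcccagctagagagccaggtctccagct
Cdkn2a, upstream start: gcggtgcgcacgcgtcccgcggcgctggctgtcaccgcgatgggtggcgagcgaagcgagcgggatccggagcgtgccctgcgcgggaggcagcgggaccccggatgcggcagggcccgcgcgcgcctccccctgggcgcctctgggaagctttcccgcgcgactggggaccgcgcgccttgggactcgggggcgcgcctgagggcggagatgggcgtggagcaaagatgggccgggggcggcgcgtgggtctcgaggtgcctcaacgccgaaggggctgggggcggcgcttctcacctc
Cdkn2a, downstream start: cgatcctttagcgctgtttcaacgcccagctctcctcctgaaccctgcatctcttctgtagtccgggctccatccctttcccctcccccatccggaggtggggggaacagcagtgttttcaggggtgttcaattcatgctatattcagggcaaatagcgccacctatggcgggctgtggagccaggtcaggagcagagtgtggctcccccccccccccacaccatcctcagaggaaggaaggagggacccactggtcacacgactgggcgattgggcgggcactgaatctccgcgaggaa

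A half-site stood in 3 of the 9 windows and in 8.36% of all 32851 promoter windows of the same length. A pair of half-sites with at most 13 bases between them stood in 1 of the 9, the upstream Cdkn1a window, and in 0.0731% of all windows. The second Cdkn1a window and those of Cdkn2b, Plk2 and Phlda3 held no half-site, which says only that these letters are not in those 300 bases. The GC box GGGCGG, read on both strands, stood in 7 of the 9 windows and in 35.7% of all. The TATA motif TATAAA stood in 0 of the 9, and in 13.6% of all windows. The windows of these genes had a GC content between 54.7% and 77.0%, highest in the upstream Cdkn2a window, against a median of 52.7% over all windows. These matches describe the letters and do not show binding in the tumours.

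Among the 3 inhibitors of cyclin-dependent kinases in this group, Cdkn1a had the widest spread. Its log2 signal was 9.91, 10.34, 10.88 and 11.03 in NeuNT replicates 1 to 4 and 10.64, 10.39, 11.28 and 10.66 in NeuNT/H1074R replicates 1 to 4. The lowest tumour was NeuNT replicate 1 and the highest NeuNT/H1074R replicate 3, a 2.59-fold range of signal, and the groups overlapped from 10.39 to 11.03. The mean was 10.54 ± 0.52 (SD, n = 4) in NeuNT and 10.74 ± 0.38 (SD, n = 4) in NeuNT/H1074R. The log2 difference of 0.20 ± 0.28 (SE) had a 95% interval from −0.44 to 0.84 and did not pass (limma, adjusted p = 0.978).

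Cdkn2a had log2 signals of 6.10, 6.68, 6.56 and 6.74 in the NeuNT tumours and 6.47, 6.55, 6.44 and 7.17 in the NeuNT/H1074R tumours. NeuNT/H1074R replicate 4 was the highest and lay apart from the other 3 tumours of its genotype, and NeuNT replicate 1 was the lowest. The log2 difference between genotypes was 0.14 ± 0.21 (SE; limma, adjusted p = 0.98). Its sign rested on single tumours: leaving out NeuNT/H1074R replicate 4 gave −0.04, and leaving out NeuNT replicate 1 gave −0.0040.

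Cdkn2b, the gene beside Cdkn2a, stood at 7.21, 8.02, 8.15 and 8.34 in NeuNT and 8.11, 8.22, 7.97 and 8.06 in NeuNT/H1074R. Apart from NeuNT replicate 1, all tumours lay between 7.97 and 8.34. The 4 NeuNT/H1074R tumours had an SD of 0.10 and the NeuNT tumours of 0.50. The genotypes differed by 0.16 ± 0.23 log2 units (SE; limma, adjusted p = 0.978), and by −0.08 without NeuNT replicate 1. Mtap, the next gene with a probe on the other side of Cdkn2a in the RefSeq order, was likewise lowest in NeuNT replicate 1, at 7.05 against 7.55 to 8.59 in the other tumours. Dmrta1, the next such gene beyond Cdkn2b, was not: its 3.71 in that tumour lay within the 3.26 to 5.70 of the others. That 3.71 was under 4.06, the limit set on gene means for dim genes. So were its 3.26 and 3.69 in NeuNT replicates 2 and 4 and its 4.03 in NeuNT/H1074R replicate 2. At so dim a signal a drop might not be seen, so Dmrta1 cannot show how far the low values extended. Copy number of the locus was not measured.

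Mdm2, the brake on p53, varied least. Its log2 signal was 8.55, 8.5, 8.65 and 8.76 in NeuNT and 8.82, 8.36, 8.49 and 8.62 in NeuNT/H1074R, a 1.37-fold range. The SD over the 8 tumours was 0.15, higher than that of 15.1% of the tested genes, where Phlda3, with 0.50, was higher than 84.4%. The difference between genotypes was −0.04 ± 0.13 (SE; limma, adjusted p = 0.988), with a 95% interval from −0.34 to 0.26. It turned to 0.01 with quantile normalization.

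The other 4 genes act downstream of p53 in growth arrest, stress and survival signalling. Phlda3, which competes with AKT for membrane lipids and so restrains the kinase downstream of PI3K, had the largest difference in size. Its log2 signal was 7.42, 8.0, 8.38 and 8.70 in NeuNT and 8.0, 7.31, 7.91 and 7.37 in NeuNT/H1074R. NeuNT replicates 3 and 4 lay above all NeuNT/H1074R tumours and NeuNT replicate 2 was level with the highest of these, while NeuNT replicate 1 lay among the lowest. The mean was 8.12 ± 0.55 (SD, n = 4) in NeuNT and 7.65 ± 0.36 (SD, n = 4) in NeuNT/H1074R. The log2 difference of −0.47 ± 0.29 (SE) had a 95% interval from −1.14 to 0.19 and did not pass (limma, adjusted p = 0.978; exact two-sided permutation p = 0.143). It kept its sign whichever tumour was left out, from −0.71 to −0.28. The −0.71 was that without NeuNT replicate 1 (limma, unadjusted p = 0.0218, adjusted p = 0.821).

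Trp53inp1, a stress protein that promotes p53 phosphorylation and autophagy, stood at 8.07, 8.35, 7.0 and 7.99 in NeuNT and 8.30, 7.51, 8.35 and 7.95 in NeuNT/H1074R. NeuNT replicate 3 was the lowest, and the difference between genotypes of 0.17 ± 0.31 (SE; limma, adjusted p = 0.98) was −0.11 without it. Ccng1 (cyclin G1), which recruits a phosphatase to Mdm2, stood at 9.54, 10.04, 9.37 and 10.23 in NeuNT and 9.97, 9.91, 10.003 and 9.98 in NeuNT/H1074R. NeuNT tumours lay on both sides of the 4 NeuNT/H1074R tumours, whose SD was 0.04 against 0.41 in NeuNT. The log2 difference was 0.17 ± 0.19 (SE; limma, adjusted p = 0.978), from 0.03 without NeuNT replicate 3 to 0.32 without NeuNT replicate 4. Plk2, a kinase of centriole duplication and stress checkpoints, stood at 9.18, 10.29, 9.39 and 9.40 in NeuNT and 9.51, 9.40, 9.36 and 9.83 in NeuNT/H1074R. NeuNT replicate 2 was the highest, and the difference of −0.04 ± 0.24 (SE; limma, adjusted p = 0.993) turned to 0.20 without it.

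**Figure D1:**
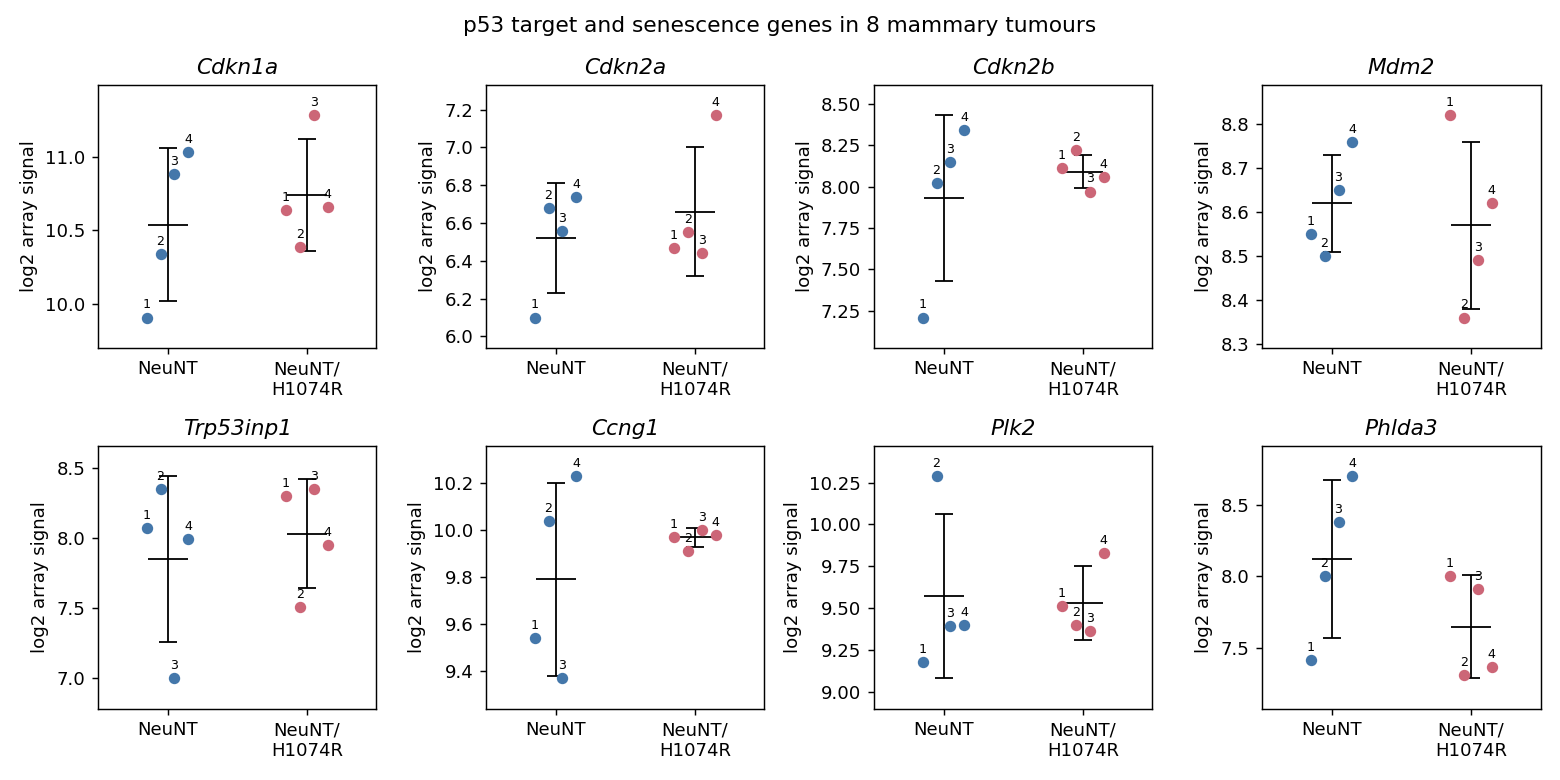
Log2 array signal (y axis, scale set for each gene) of the 8 measured genes in each tumour, by genotype (x axis). Points are tumours with their replicate number, horizontal bars are means and error bars are 1 SD (n = 4). The genotypes overlap in every panel, and NeuNT replicate 1 is the lowest tumour for Cdkn1a, Cdkn2a, Cdkn2b and Plk2.

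Over the group, 5 genes had a higher and 3 a lower mean in NeuNT/H1074R, with a median log2 difference of 0.15, against −0.0027 over all tested genes, of which 49.5% were higher. In limma, 0 of the 8 passed the adjusted threshold of 0.05, as did 0.0% of all 16635 tested genes, and 0 had an unadjusted p under 0.05, against 3.82% of all genes. Exact permutations of single genes cannot go below p = 0.0286 with 4 against 4 tumours, and gave p = 0.143 (Phlda3) or more for the 8 genes. Non-overlapping genotypes, every tumour of one above every tumour of the other, were seen for 0 of the 8 genes and for 2.69% of all tested genes. The widest intervals were those of Trp53inp1, Phlda3 and Cdkn1a, so for these genes the data bound a difference least.

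**Figure D2:**
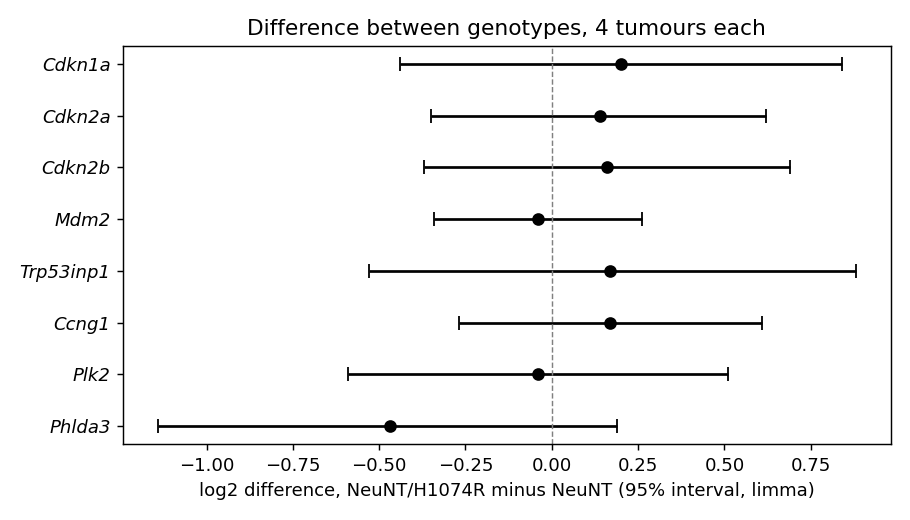
Log2 difference NeuNT/H1074R minus NeuNT for each measured gene (x axis) with its 95% interval from limma, 4 tumours per genotype. All 8 intervals include 0, and that of Phlda3 reaches furthest down, from −1.14 to 0.19.

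Erbb2 was the second variable of interest, since oncogene dose can set how strongly these genes are driven. Its log2 signal was 10.28, 8.73, 9.89 and 9.10 in NeuNT and 8.89, 9.49, 9.33 and 9.36 in NeuNT/H1074R. The 2 highest tumours and the lowest were all NeuNT, so the relation with Erbb2 was spread mostly over that genotype. How far the Erbb2 probe reads the transgene is not known from the labels. Relations were computed for the 8 genes over the 8 tumours, with exact two-sided permutation p-values that are not adjusted, and with a limma slope on Erbb2 adjusted over all 16634 other tested genes.

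All 8 genes had a Pearson's r below 0, with a median of −0.50, against 49.0% of all tested genes and a median of 0.01. The count was 6 of 8 without NeuNT replicate 1, where 50.2% of all genes were below 0, and the median was then −0.15. It was 7 of 8 without both NeuNT replicates 1 and 2, the tumours farthest from the median Erbb2 value, with a median of −0.12. Genes that vary together across the same tumours are not separate observations. A shared sign was also seen in lists of cell type markers. All 7 tested basal epithelial markers (median −0.57) and all 6 tested neutrophil markers (median −0.26) had r below 0. All 7 tested adipocyte markers had r above 0 (median 0.21). An inverse relation is thus not particular to these 8 genes. In limma, 0 of the 8 slopes passed, as did 0.0% of all genes, and 2 had an unadjusted p under 0.05 (Ccng1 and Plk2), against 7.24% of all genes. Permutation p-values adjusted over all tested genes also gave 0 of 8.

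Ccng1 was the gene closest to an inverse relation with Erbb2. Pearson's r was −0.81 (exact permutation p = 0.0187) and Spearman's rho −0.79 (exact permutation p = 0.0279). The slope was −0.45 ± 0.14 (SE) log2 units per log2 unit of Erbb2 and did not pass (limma, adjusted p = 0.6). The relation stayed between r = −0.83 and −0.75 whichever tumour was left out and was −0.82 over the 6 tumours without NeuNT replicates 1 and 2. Among all genes, 1.0% had a lower r. The 2 tumours with the highest Erbb2, NeuNT replicates 1 and 3, had the 2 lowest Ccng1 signals, and the other 6 lay between 9.91 and 10.23.

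Trp53inp1 had an inverse relation with Erbb2 whose size depended on single tumours. Pearson's r was −0.52 (exact permutation p = 0.179) and Spearman's rho −0.60 (exact permutation p = 0.132; limma, adjusted p = 0.761 for the slope). Without NeuNT replicate 1, which had the highest Erbb2 and a middling Trp53inp1 of 8.07, r was −0.86, and it was also −0.86 without NeuNT replicates 1 and 2. Without NeuNT replicate 3 it was −0.37. Plk2 had r = −0.67 (exact permutation p = 0.0721) and rho = −0.67 (exact permutation p = 0.0831; limma, adjusted p = 0.684 for the slope). It rested on the tumours at the ends of the Erbb2 range: without NeuNT replicates 1 and 2, r was −0.15.

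The negative r of the 3 inhibitor genes rested on NeuNT replicate 1. Cdkn2b had r = −0.63 (exact permutation p = 0.0956) but rho = −0.12 (exact permutation p = 0.793), and without that tumour r was 0.15. Cdkn1a had r = −0.34 (exact permutation p = 0.414) and rho = −0.14 (exact permutation p = 0.752), and without it r was 0.29. Cdkn2a had r = −0.47 (exact permutation p = 0.231) and rho = −0.33 (exact permutation p = 0.428), and without it r was −0.02. Leaving out NeuNT/H1074R replicate 4 instead gave Cdkn2a an r of −0.72. Over the 6 tumours without NeuNT replicates 1 and 2, r was −0.08 for Cdkn2b, −0.03 for Cdkn1a and 0.01 for Cdkn2a. In the scatter of these 3 genes against Erbb2, NeuNT replicate 1 lies below all other tumours, and for Cdkn2a NeuNT/H1074R replicate 4 also stands above the rest.

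Mdm2 and Phlda3 had weak relations. Mdm2 had r = −0.24 (exact permutation p = 0.574) and rho = −0.21 (exact permutation p = 0.619), and r was 0.00083 without NeuNT/H1074R replicate 1 and −0.49 over the 6 tumours without NeuNT replicates 1 and 2. Phlda3 had r = −0.33 (exact permutation p = 0.425) and rho = −0.40 (exact permutation p = 0.327), and r was −0.08 without NeuNT replicates 1 and 2. With genotype as a second term, the partial r with Erbb2 was −0.54 for Phlda3, −0.79 for Ccng1 and −0.70 for Plk2, and the slopes did not pass (limma, adjusted p = 0.67, 0.45 and 0.517). With Erbb2 as a second term, the Phlda3 difference between genotypes was −0.58 (limma, adjusted p = 0.793). The tumours of each genotype alone number 4, too few for an r of their own.

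**Figure D3:**
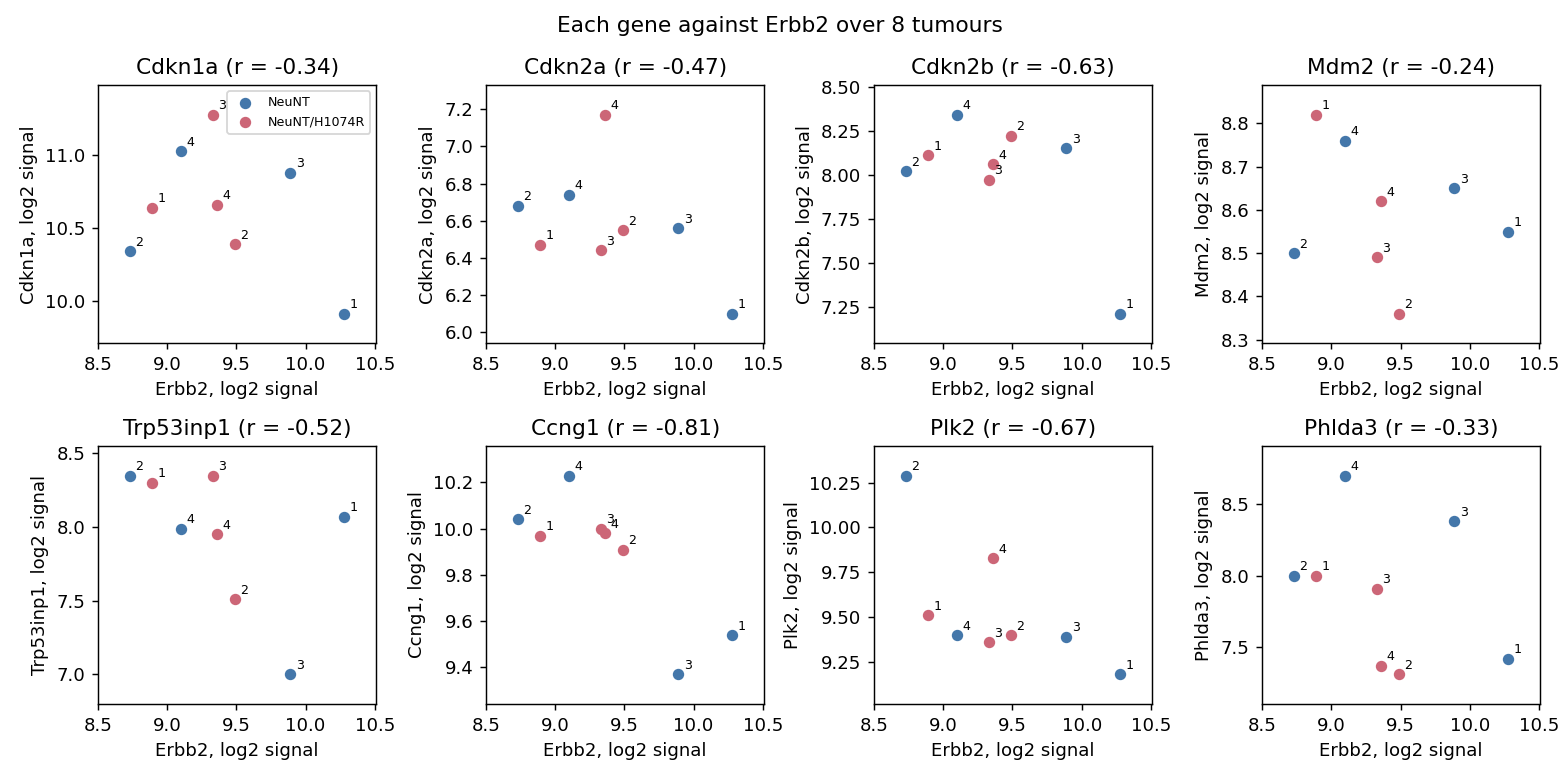
Log2 signal of each measured gene (y axis) against that of Erbb2 (x axis) in 8 tumours, coloured by genotype and labelled with the replicate number; r is Pearson's. Ccng1 is lowest in the 2 tumours with the highest Erbb2 and between 9.91 and 10.23 in the other 6 (r = −0.81); for Cdkn1a, Cdkn2a and Cdkn2b NeuNT replicate 1, at the far right, lies below all other tumours.

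NeuNT replicate 1 was the lowest of the 8 tumours for 4 of the 8 genes and the highest for none; over all tested genes it was the lowest for 11.0% and the highest for 13.1%. Its median deviation from the gene median was −0.44 log2 units over the 8 genes and 0.0050 over all genes. NeuNT replicate 4 was the highest for 3 of the 8 (Cdkn2b, Ccng1 and Phlda3), against 12.4% of all genes. NeuNT replicate 3 was the lowest for Trp53inp1 and Ccng1 (15.8% of all genes), and NeuNT/H1074R replicate 2 for Mdm2 and Phlda3 (8.77%). Cdkn1a and Trp53inp1 were highest in NeuNT/H1074R replicate 3 (11.0%).

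Whether these genes varied together or apart could not be decided with so few tumours. No median over pairs of other genes was taken for comparison. Of the 28 pairs, 21 had a Pearson's r above 0, with a median of 0.27 and a range from −0.25 to 0.65, and without NeuNT replicate 1 the median was 0.06. No pair had an exact permutation p under 0.05, and 0 of 28 passed as limma slopes adjusted over all tested genes. The closest pair was Cdkn1a and Cdkn2b (r = 0.65, exact permutation p = 0.0925; rho = 0.33, exact permutation p = 0.428), and its r was −0.0045 without NeuNT replicate 1 and 0.60 without the 2 tumours farthest from the median of Cdkn1a. Cdkn2a and Cdkn2b, neighbours in the genome, had r = 0.61 (exact permutation p = 0.171; rho = 0.52, exact permutation p = 0.197), 0.01 without NeuNT replicate 1 and 0.56 without the 2 tumours farthest from the median of Cdkn2a. Trp53inp1 and Ccng1 had r = 0.63 (exact permutation p = 0.085; rho = 0.55, exact permutation p = 0.171), which was 0.79 without NeuNT replicate 1 but 0.05 without the 2 tumours farthest from the median of Trp53inp1. Mdm2 and Phlda3 had r = 0.60 (exact permutation p = 0.117; rho = 0.60, exact permutation p = 0.132), and 0.57 without the 2 tumours farthest from the median of Mdm2. Cdkn1a and Mdm2, both textbook p53 targets, had r = 0.29 (exact permutation p = 0.491; rho = 0.21, exact permutation p = 0.619), and 0.72 without the 2 tumours farthest from the median of Cdkn1a.

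By a search over all tested genes for the highest Pearson's r over the 8 tumours, the gene most like Ccng1 was Trp73, the p53 relative p73 (r = 0.979). It stood at 5.17 and 5.15 in NeuNT replicates 1 and 3 and between 5.43 and 5.69 elsewhere. The gene most like Phlda3 was Dusp10, a phosphatase of stress kinases (r = 0.993), and the one most like Cdkn1a was Tsfm (r = 0.977), followed by Reep1 (r = 0.955) and the mitochondrial chaperonin gene Hspe1 (r = 0.945). Plk2 was closest to Tbx1 (r = 0.988), Cdkn2b to Ceacam16 (r = 0.975), Cdkn2a to Abcc6 (r = 0.966), Trp53inp1 to Slc25a18 (r = 0.953) and Mdm2 to Trem1 (r = 0.931). These are the highest of 16634 correlations over 8 tumours each and describe likeness only.

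Other p53 targets were read from a list of 29 genes, of which 26 were measured and tested. Between genotypes 12 were higher and 14 lower in NeuNT/H1074R, with a median log2 difference of −0.03; 0 passed in limma and 0 had an unadjusted p under 0.05 (3.82% of all tested genes). Rps27l had the smallest p, at 6.89 to 7.43 in NeuNT and 7.28 to 7.88 in NeuNT/H1074R, a log2 difference of 0.39 ± 0.18 (SE; limma, adjusted p = 0.978). Rrm2b, a ribonucleotide reductase subunit for DNA repair, differed by 0.24, Zmat3 by 0.23 and the cell death gene Bbc3 by 0.18 (limma, adjusted p = 0.978 for each).

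Against Erbb2, 21 of these 26 had r below 0 (49.0% of all genes), with a median of −0.26, and the count was 18 to 21 when tumours were left out singly. It was 21 without both NeuNT replicates 1 and 2 (50.6% of all genes), with a median of −0.36. In limma 0 passed and 6 had an unadjusted p under 0.05 (7.24% of all genes). Zmat3, an RNA-binding protein, had r = −0.83 (exact permutation p = 0.012; rho = −0.67, exact permutation p = 0.0831; limma, adjusted p = 0.61), and r = −0.60 without NeuNT replicates 1 and 2. Sesn2, which restrains mTORC1 under stress, had r = −0.80 (exact permutation p = 0.015; rho = −0.86, exact permutation p = 0.0107; limma, adjusted p = 0.502), and r = −0.61 without them. Dcxr, a reductase, had r = −0.80 (exact permutation p = 0.019; rho = −0.69, exact permutation p = 0.0694; limma, adjusted p = 0.526), and r = −0.74 without them. Sesn2 was 7.63 and 7.54 in NeuNT replicates 2 and 4, and 7.40 and 7.42 in replicates 1 and 3 of NeuNT/H1074R; the remaining 4 tumours spanned 6.09 to 6.71.

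The p53 relative Trp63, a factor of basal epithelium that binds the same half-site, was high in the same 4 tumours, at 8.44 in NeuNT replicates 2 and 4 and at 7.64 and 7.65 in replicates 1 and 3 of NeuNT/H1074R, with the others from 4.87 to 6.11. Its r with Erbb2 was −0.82 (exact permutation p = 0.01; rho = −0.88, exact permutation p = 0.00724; limma, adjusted p = 0.438), and −0.83 without NeuNT replicates 1 and 2. The mean of the 7 measured basal epithelial markers of 8, Trp63 among them, was 8.75 to 9.81 in those 4 tumours and 6.49 to 6.76 in the others. Ccng1 ran from 9.97 to 10.23 in the 4 tumours with high basal markers and from 9.37 to 9.98 in the rest, and Trp53inp1 from 7.99 to 8.35 and from 7.0 to 8.07. The other measured genes overlapped more between these tumours. Plk2 ran from 9.36 to 10.29 and from 9.18 to 9.83, and Cdkn2b from 7.97 to 8.34 and from 7.21 to 8.22. The part of the basal markers in the relations with Erbb2 was not tested.

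Among 17 tested p53 regulators and relatives, 7 were higher and 10 lower in NeuNT/H1074R, 0 passed, and 1 had an unadjusted p under 0.05, a share near the 3.82% of all tested genes. It was Atm, the kinase that activates p53 after DNA breaks, with 5.45 to 6.37 in NeuNT and 6.29 to 6.61 in NeuNT/H1074R, a log2 difference of 0.48 ± 0.20 (SE; limma, adjusted p = 0.978). Cop1, a ubiquitin ligase for p53, differed by −0.22 and the p53 kinase Hipk2 by −0.46, its highest value being 9.97 in NeuNT replicate 2. Of the 17, 10 had r above 0 with Erbb2 and 7 below 0, with a median of 0.08. Trp53bp1 had r = 0.59 (exact permutation p = 0.125), and r = 0.82 without NeuNT replicates 1 and 2. Of 15 regulators of the Cdkn2a-Cdkn2b locus, 4 were higher and 11 lower and 0 passed; the Polycomb gene Bmi1, a repressor of the locus, stood at 6.19 to 6.56 in NeuNT and 5.71 to 6.43 in NeuNT/H1074R, a log2 difference of −0.32 ± 0.21 (SE; limma, adjusted p = 0.978). Of 14 CDK and RB partners, 5 were higher and 9 lower and 0 passed. Their r with Erbb2 was above 0 for 7 and below 0 for 7, with a median of 0.03. Against Erbb2, Cdk2 had r = 0.86 (exact permutation p = 0.00796; rho = 0.76, exact permutation p = 0.0368; limma, adjusted p = 0.68), and r = 0.76 without NeuNT replicates 1 and 2. Rb1, which the Cdkn2a and Cdkn2b inhibitors keep active, had r = −0.81 (exact permutation p = 0.0149; rho = −0.69, exact permutation p = 0.0694; limma, adjusted p = 0.46), and r = −0.53 without them.

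Genes of the senescence secretory programme were lower in NeuNT/H1074R for 12 of 16 tested members and higher for 4, with a median log2 difference of −0.30, where 49.5% of all tested genes were higher, and 0 passed (0 at an unadjusted p under 0.05). The matrix protease Mmp3 stood at 7.05 to 8.17 in NeuNT and 5.22 to 7.61 in NeuNT/H1074R, a log2 difference of −1.09 ± 0.50 (SE; limma, adjusted p = 0.978). The chemokines Ccl8 and Ccl2 differed by −1.09 and −0.58 and Igfbp7 by −0.35. Many of these genes are also made by stromal and immune cells: the mean of all 10 macrophage and monocyte markers was 8.63 to 9.35 in NeuNT and 8.03 to 9.12 in NeuNT/H1074R, and that of all 9 fibroblast markers 7.95 to 9.28 and 7.75 to 8.62. All 10 macrophage and monocyte markers were lower in NeuNT/H1074R, with a median log2 difference of −0.37. Of the fibroblast markers 8 were lower and 1 higher, with a median of −0.30, and 0 passed in either list. Mast cell and adipocyte markers had larger shifts the same way, and skeletal muscle markers a larger shift the other way. All 5 tested mast cell markers of 7 had a lower mean in NeuNT/H1074R, with a median log2 difference of −1.05. Of these, 4 had an unadjusted p under 0.05 (3.82% of all tested genes) and 0 passed. The list mean of the 7 was 4.99 to 6.11 in NeuNT and 4.33 to 5.14 in NeuNT/H1074R. All 7 tested adipocyte markers were likewise lower, with a median of −0.84, at list means of 5.68 to 7.29 and 5.08 to 6.16. All 7 tested skeletal muscle markers were higher, with a median of 1.23. Of those, 4 had an unadjusted p under 0.05 and 0 passed. The part of these cell types in the difference was not tested, and in whole tumours fewer cells of a type and less RNA per cell cannot be told apart. Of 4 tested lysosomal and nuclear senescence genes (Fuca1, Lmnb1, Hmgb1 and Hmgb2), all had a lower mean in NeuNT/H1074R. The differences were 0.14 or less in size, and 0 passed. Genes of this list need not change the same way in senescence, so their shared sign has no clear reading.

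Proliferation genes, which the inhibitors hold down, were lower in NeuNT/H1074R for 21 of 22 tested members and higher for 1, where 49.5% of all tested genes were higher. The median log2 difference was −0.23, 0 passed and 0 had an unadjusted p under 0.05 (3.82% of all tested genes). The genes of smallest p, Cenpa, Aurkb, Ccna2 and Bub1b, were each lowest in NeuNT/H1074R replicate 4, at 6.06, 6.09, 6.94 and 5.10. How far the count rests on that tumour was not tested. Genes of 1 programme are not separate observations. All 22 had r above 0 with Erbb2, with a median of 0.46 against 0.01 over all genes. The direction depended on the ends of the Erbb2 range: without NeuNT replicates 1 and 2, 9 of the 22 were below 0 and the median was 0.08. With tumours left out singly, 0 to 1 of the 22 were below 0. Cenpa, a centromere histone, had r = 0.62 (exact permutation p = 0.103; rho = 0.60, exact permutation p = 0.132; limma, adjusted p = 0.697), and the replication clamp gene Pcna r = 0.62 (exact permutation p = 0.098; rho = 0.43, exact permutation p = 0.299; limma, adjusted p = 0.723). Of 13 stress genes driven by ATF4, 9 were higher and 4 lower in NeuNT/H1074R and 0 passed. As a list they had no common direction with Erbb2, with r above 0 for 7 and below 0 for 6 and a median of 0.01. The pseudokinase gene Trib3 had r = 0.81 with Erbb2 (exact permutation p = 0.0173; rho = 0.88, exact permutation p = 0.00724; limma, adjusted p = 0.46), and r = 0.57 without NeuNT replicates 1 and 2.

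**Figure D4:**
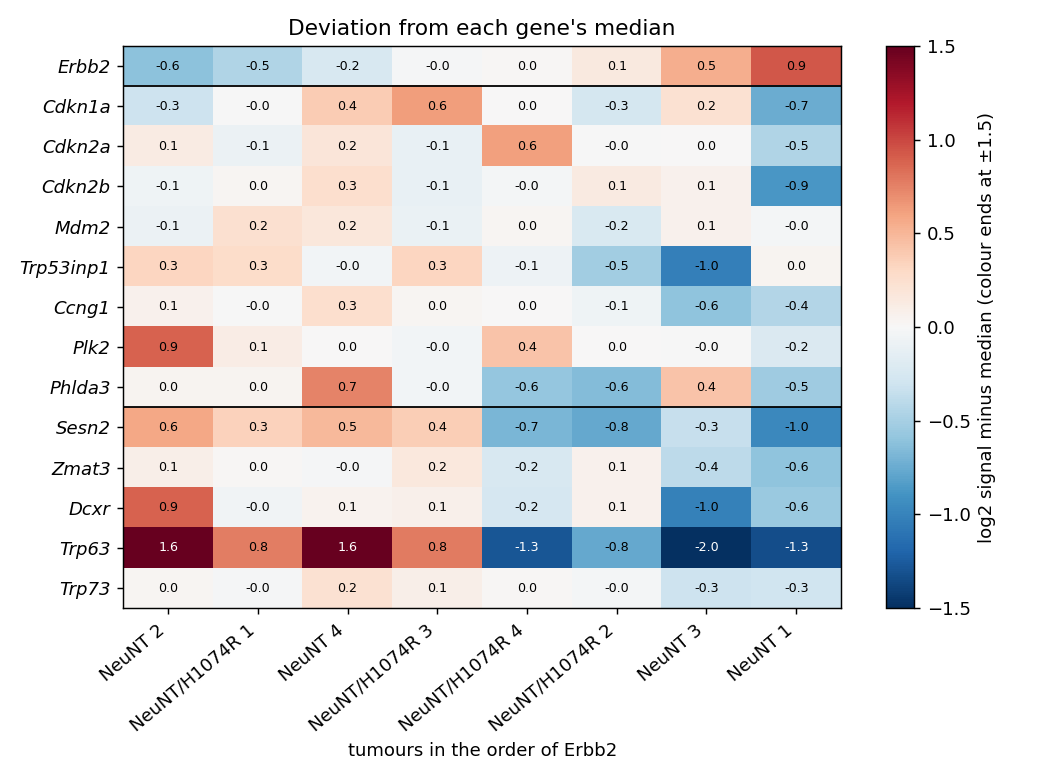
Log2 signal minus the median over the 8 tumours (colour and printed value) for Erbb2, the 8 measured genes and, below the second line, 5 further genes. These are the p53 targets and relatives with a negative r among those named for their relation with Erbb2. Trp53bp1, named likewise but with a positive r, is not shown. Columns are tumours in the order of Erbb2. Cdkn1a, Cdkn2a and Cdkn2b are low in NeuNT replicate 1 at the right end, and Trp63 and Sesn2 are high in the 4 tumours at the left.

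**Figure D5:**
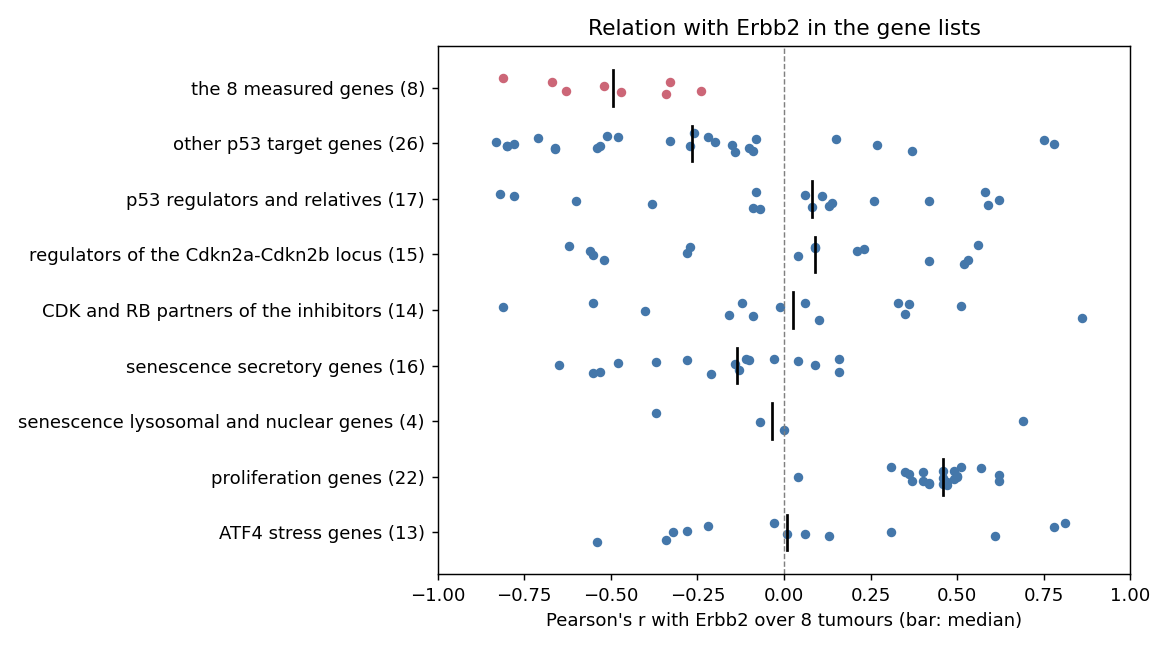
Pearson's r with Erbb2 over 8 tumours (x axis) for each tested gene of the 8 measured genes and of each list (rows, number of genes in brackets; height within a row is only scatter); bars are medians. The 8 measured genes lie below 0 (median −0.50) and all 22 proliferation genes above 0 (median 0.46).

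The array medians lay between 4.81 and 4.87, and arrays give no read depth, so the number of tumours limits the precision. All 9 luminal epithelial markers had a mean above the limit for dim genes, with list means from 9.48 to 10.35 across the tumours. Skeletal muscle markers (8 genes, 1 of them dim) averaged 6.95 and 6.58 in replicates 1 and 3 of NeuNT/H1074R, and from 4.59 to 5.31 elsewhere; their part in the results was not tested. No batch is given in the labels.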

How the data were processed

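The authors deposited 1 table of log2 values per probe for the 8 tumours (41345 probes). Per the submitters' processing notes, Affymetrix Expression Console and Transcriptome Analysis Console were used; no label states the background correction or normalization, and the log2 scale was read from the values. Genes were named from probes with 1 symbol in the platform annotation (23521 probes), the brightest probe standing for a gene, and the dimmest 25% of genes were left out. limma 3.58.1 (R 4.3.3; eBayes, intensity trend) gave differences and slopes on Erbb2, two-sided; p-values were adjusted by Benjamini-Hochberg across every tested gene. Exact permutations used 70 splits for a difference (smallest p 0.0286) and all pairings for a correlation. Both fits were tested on simulated data. Genes named were the members, up to 4 (genotype) and 3 (Erbb2) genes of smallest p per list, and the 3 genes most like each member. Members and lists were chosen with earlier results of these data known. Alternatives changed scaling, filter, probes, variance model and covariates or left out tumours. Figures used matplotlib 3.10.9.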

Additional observations from a re-analysis of the deposited data

Results flagged for a closer look

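Cdkn2a in NeuNT/H1074R replicate 4 stood at 7.17, where the other 3 tumours of that genotype lay between 6.44 and 6.55; the gap took 0.85 of the group's range; Dixon's test calls this a value far from the others. It was the single flag among 18 groups of 4 values (8 genes and Erbb2 in 2 genotypes), and chance flags about 1 in 20.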

How the results depend on the processing

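No member passed the threshold in either comparison under any alternative. The number of genes past it between genotypes was 0 throughout. For the slope on Erbb2 it ran from 0 to 1 when tumours were left out singly: Hp passed without NeuNT replicate 1 (slope −2.93, limma, adjusted p = 0.0395) and Snx22 without NeuNT/H1074R replicate 3 (slope 1.97, limma, adjusted p = 0.00985), both named after their values were seen. Of the members' differences, 12 of 136 alternative values changed sign, and of the relations with Erbb2 4 of 144. Part of these alternatives could not change a sign, so the shares overstate how stable the values were. Each member had 1 probe, and the filter and the intensity trend leave a difference or r as it is. The exact permutations reuse the same difference, and array weights leave r unchanged. With single tumours left out, differences ran from −0.0076 to 0.37 for Cdkn1a, −0.04 to 0.21 for Cdkn2a, −0.08 to 0.30 for Cdkn2b, −0.12 to 0.03 for Mdm2, −0.11 to 0.35 for Trp53inp1 and −0.17 to 0.20 for Plk2; r ran from −0.59 to 0.29 for Cdkn1a, −0.78 to 0.15 for Cdkn2b and −0.44 to 0.00083 for Mdm2. With quantile normalization the differences were 0.01 for Mdm2 and 0.02 for Plk2, and without NeuNT replicates 1 and 2 r was 0.0077 for Cdkn2a. The causes were not tested beyond these values. Counts of r below 0 without single tumours were chosen after seeing the data. No paired analysis was possible because the labels give each tumour a number of its own, none shared between genotypes; the replicate numbers 1 to 4 used here only name the tumours.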
